A study of Mus musculus with 6 samples.

Results

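The protein kinase C genes were followed in mouse cells in which both atypical isoforms had been targeted with CRISPR guides. The set comprised 9 genes chosen by name: the edited atypical isoforms Prkci and Prkcz, the classical isoforms Prkca and Prkcb, the nPKC isoforms (calcium-independent but diacylglycerol-dependent) Prkcd, Prkce, Prkch and Prkcq, and the related kinase gene Pkn2. Of these, 8 were among the 20756 genes of the expression table and 7 were abundant enough to be tested, while Prkcq was not analysed here. The samples were 3 with a control guide (sgC) and 3 with guides against both atypical genes (sgPrkci/Prkcz), all untreated, of strain C57BL/6 and of the material called MTO in the labels, which do not spell out the abbreviation; the series title names mesenchymal colorectal cancer. Both groups were grown in advanced DMEM/F12 with B-27 and human EGF. The protocols describe subcutaneous injection as well as culture, and the design text names tumors with 4 replicates. The table itself is marked as in vitro, with 3 samples per genotype. Neither the guide sequences and their cut sites nor whether a line is 1 clone is stated in the sources used here, and nothing says that replicates came from separate cultures, so a p-value measures only how these samples vary, and that variation may be technical. The sgC samples are called controls and the sgPrkci/Prkcz samples edited samples.

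Protein kinases C are serine/threonine kinases of the AGC group. Classical isoforms are activated by calcium and the membrane lipid diacylglycerol, nPKC isoforms by diacylglycerol without calcium, and atypical isoforms by neither, since they are held and directed by protein partners such as the Par6 scaffold. In epithelia the atypical isoforms are best known for setting up the apical domain and the tight junctions, and the question put to the data was whether mRNA of the other isoforms stood higher where the atypical genes were edited.

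Levels are CPM, reads of a gene scaled to a fixed library total, from a 3′ tag library, which yields about 1 tag per transcript whatever its length, so levels of different genes can be set side by side without dividing by length. A log2 fold change is the difference of mean log2(CPM + 1), edited minus control, and is understated for genes of low level. A gene was called, as risen or fallen, at a p under 0.05 after Benjamini-Hochberg (BH) adjustment in a limma fit over the 12207 genes that reached 1 CPM in 3 or more samples. Of these genes 35.2% were called, 11.4% as risen and 23.8% as fallen, and their median log2 fold change was -0.17. Centring each sample on its median level over these genes (sample medians equalised) raised every log2 fold change by 0.20, and 19.2% were then called as risen and 12.9% as fallen, so values on that scale are given beside the calls.

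The libraries held 2821908 to 3048170 reads in the controls and 1543826 to 1808292 in the edited samples, so depth followed the genotype. All 10 epithelial markers, such as Epcam, Cdh1 and Krt8, were tested, with a summed level of 4948 to 5627 CPM in the controls and 4896 to 5522 CPM in the edited samples. Single markers differed behind that sum. By the limma test described above 3 rose, Vil1, Epcam and Cldn4, with log2 fold changes of 0.97, 0.52 and 0.46. Another 2 fell, Krt7 and Krt18, at -0.37 and -0.21. Of 8 fibroblast, 6 endothelial and 11 leukocyte markers 6, 4 and 2 were in the table. Fibroblast markers summed to at most 2.35 CPM in any library, endothelial markers to at most 0.670 CPM and leukocyte markers to at most 1.70 CPM. Lum, Pecam1 and Cdh5 were at 0 reads in every library. The genotypes also differed in Y-linked transcripts, a point looked up after values had been seen: Ddx3y had 0 reads over the controls and 175 over the edited samples, Uty 0 and 77, Kdm5d 0 and 35, and Eif2s3y 1 and 93. Xist, the transcript of the inactive X chromosome, was near 0 in both, with 4 reads over the controls and 1 over the edited samples, so the controls lacked Y-linked transcripts without expressing Xist. Chromosome medians differed as well, from a median log2 fold change of -0.44 over 966 genes of chromosome 11 to 0.09 over 795 genes of chromosome 1, the lowest and highest of the autosomes, and the 21 tested mitochondrial genes had a median of 0.31. The ribosomal RNA genes mt-Rnr1 and mt-Rnr2 together with Gm42418 took 21.86%, 21.90% and 21.24% of CPM in the controls and 24.34%, 24.57% and 22.21% in the edited samples, without overlap. These features follow the genotype and cannot be told apart from it by design. For depth, values from reads thinned to equal depth are given with the calls, and for chromosome position values relative to neighbouring genes; the part of the sex-linked, mitochondrial and ribosomal RNA differences in the results was not tested. In bulk RNA, fewer cells of a type and less RNA per cell cannot be told apart either.

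Of the edited pair, Prkcz mRNA was lower in every edited sample and Prkci mRNA was not detectably different. Prkci (ENSMUSG00000037643, GRCm38 chromosome 3, 30995747 to 31052959) encodes the iota isoform, the more abundant atypical kinase here. It stood at 46.6, 54.5 and 63.8 CPM in the 3 controls and at 55.1, 54.2 and 53.8 CPM in the 3 edited samples. The edited samples lay inside the range of the controls, and the log2 fold change was 0.00 with a 95% interval of -0.28 to 0.27 (limma, BH-adjusted p = 0.986). With sample medians equalised it was 0.20, still not called (limma, BH-adjusted p = 0.267). On the linear scale the first interval ran from 0.825 to 1.21 times the control level. A 3′ tag does not check whether an edited exon still yields protein, so an unaltered level says nothing of the loss of the kinase.

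Prkcz (ENSMUSG00000029053, GRCm38 chromosome 4, 155260129 to 155361361, minus strand) encodes the zeta isoform and was the lowest of the tested isoforms. Its levels were 6.37, 5.58 and 4.96 CPM in the controls, from 19, 17 and 14 reads. In the edited samples they were 3.98, 1.66 and 0.648 CPM, from 7, 3 and 1 reads. The groups did not overlap. That held for 45.0% of all tested genes, 15.0% with the edited samples higher and 30.0% with them lower, and for 5 of the 7 tested members. The edited zeta levels differed among themselves by more than the controls did. The log2 fold change was -1.24 (95% interval -2.00 to -0.48; limma, BH-adjusted p = 0.00967), or -1.04 with sample medians equalised. Over pooled reads the level in the edited samples was 0.381 of that in the controls, with an exact 95% counting interval of 0.179 to 0.741. The call was lost without sgPrkci/Prkcz replicate 3, the sample with a single read (-0.86; limma, BH-adjusted p = 0.0612), with DESeq2 on recovered reads (BH-adjusted p = 0.167) and with limma without trend (BH-adjusted p = 0.0600). With so few reads the size of the fall depended on the pseudocount, from -0.61 with 5 to -1.71 with 0.1. A stretch of the zeta mRNA is also shared with another gene: 200 of the 1850 different 75-base runs in the last 500 bases of its coding transcripts, 10.8%, occur in Prkcz2 on chromosome 7. For the other members no such run was shared with another gene.

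The promoters of the edited pair differ in sequence and are shown as a description. Whether they bear on the call of Prkcz, or on the lack of a call for Prkci, was not tested. Each is the 250 bases before a RefSeq start (build GRCm38.p6), written 5′ to 3′ on the gene's strand. Capitals mark matches on either strand to the GC box GGGCGG, the CCAAT box CCAAT, the TATA box TATAAA, the AP-1 motif TGANTCA, the cyclic AMP response element TGACGTCA or the NF-κB motif, and adjoining or overlapping matches merge into 1 run.
Prkci, chr3:30995521-30995770, plus strand: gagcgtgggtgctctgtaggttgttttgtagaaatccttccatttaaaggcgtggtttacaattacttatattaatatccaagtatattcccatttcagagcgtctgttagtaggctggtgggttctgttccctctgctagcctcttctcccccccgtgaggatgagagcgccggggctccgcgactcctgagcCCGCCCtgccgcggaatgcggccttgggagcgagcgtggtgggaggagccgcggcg
Prkcz, chr4:155361429-155361678, minus strand: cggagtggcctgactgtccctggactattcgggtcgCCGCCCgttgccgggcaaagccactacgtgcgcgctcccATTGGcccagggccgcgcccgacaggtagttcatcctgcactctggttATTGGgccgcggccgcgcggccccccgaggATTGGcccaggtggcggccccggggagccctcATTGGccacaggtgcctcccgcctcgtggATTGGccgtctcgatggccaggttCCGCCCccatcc
The Prkcz window held 5 CCAAT boxes, all on the opposite strand and so printed as ATTGG, and 2 GC boxes. The Prkci window held 1 GC box and 0 CCAAT boxes. Among 32851 promoters of this length 33.8% held a CCAAT box and 32.7% a GC box. RefSeq lists 3 starts for Prkcz, and the 2 others lie inside the gene. The windows of those 2 starts held 0 CCAAT boxes each, and 0 and 2 GC boxes. In brain an internal start of this gene gives PKMζ, a form that lacks the regulatory part. A tag at the 3′ end cannot tell which start a transcript used, so the fall is that of all zeta transcripts together.

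**Figure D1:**
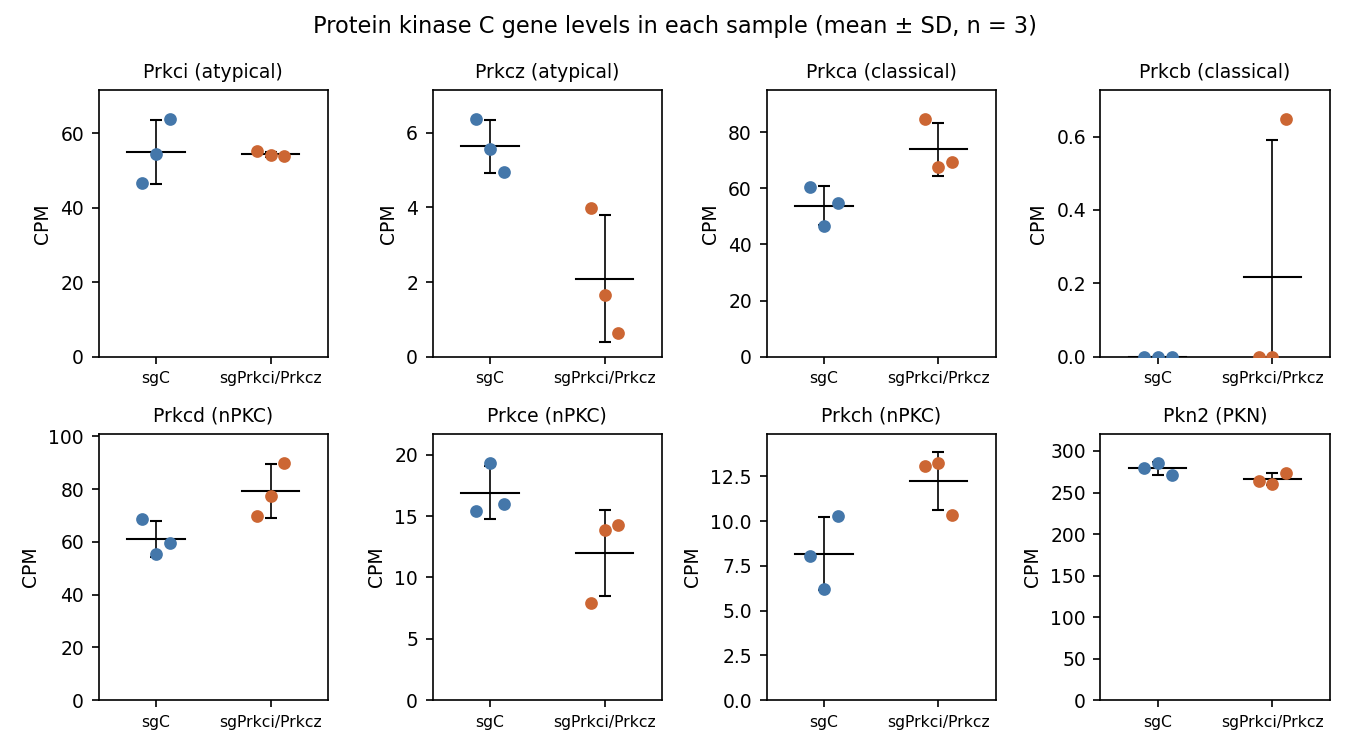
CPM of the 8 measured kinase genes in each sample, 1 panel per gene with its own axis from 0; points are samples, horizontal lines are means and bars are SD (n = 3). Prkcz lies lower and Prkca and Prkcd lie higher in all 3 sgPrkci/Prkcz samples, while Prkci and Pkn2 overlap between the genotypes.

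Among the diacylglycerol-responsive isoforms, Prkca and Prkcd rose 1.365-fold and 1.285-fold on the (CPM + 1) scale, and they were the only members outside the edited pair to pass the test. Prkca (ENSMUSG00000050965, GRCm38 chromosome 11, 107933387 to 108343928, minus strand) encodes the classical alpha isoform, which is widely expressed and acts at the plasma membrane. Its levels were 60.3, 46.6 and 54.6 CPM in the controls and 84.6, 67.5 and 69.3 CPM in the edited samples. Every edited sample was above every control, with the highest value in replicate 1. The mean went from 53.8 ± 6.91 to 73.8 ± 9.43 CPM (SD, n = 3 each), a log2 change of 0.45 (95% interval 0.18 to 0.72; limma, BH-adjusted p = 0.00842), or 0.65 with sample medians equalised. Without sgC replicate 2 the log2 fold change was 0.35 (limma, BH-adjusted p = 0.0751), and without sgPrkci/Prkcz replicate 1 it was also 0.35 (0.0765). Limma without trend did not call it either (BH-adjusted p = 0.0815). The edgeR test on reads recovered from the CPM gave 0.60 (BH-adjusted p = 0.000251).

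Prkcb, the other classical isoform and one best known from B cells, was close to absent. It had 0 reads in the controls, which allows up to 0.339 CPM (3 reads over the group), and 1 read in the edited samples. No comparison was made at that depth. Of the classical members, Prkca held nearly all of the tags.

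Prkcd (ENSMUSG00000021948, GRCm38 chromosome 14, 30595354 to 30626210, minus strand) encodes the nPKC isoform delta, often linked to apoptosis and growth arrest. Its levels were 68.7, 55.4 and 59.5 CPM in the controls and 69.9, 77.4 and 90.04 CPM in the edited samples. The groups did not overlap, but the highest control and the lowest edited sample were only 1.16 CPM apart. The mean went from 61.2 ± 6.80 to 79.1 ± 10.2 CPM, a log2 change of 0.36 (95% interval 0.10 to 0.62; limma, BH-adjusted p = 0.0254), or 0.57 with sample medians equalised. The call was lost with limma without trend (BH-adjusted p = 0.126) and when any of 3 samples was left out. With control replicate 2, control replicate 3 or edited replicate 3 removed the log2 fold changes were 0.29, 0.35 and 0.27 (limma, BH-adjusted p = 0.134, 0.0644 and 0.135). With edgeR on recovered reads it was 0.50 (BH-adjusted p = 0.00124).

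The promoters of the pair that rose are printed in the same way.
Prkca, chr11:108343889-108344138, minus strand: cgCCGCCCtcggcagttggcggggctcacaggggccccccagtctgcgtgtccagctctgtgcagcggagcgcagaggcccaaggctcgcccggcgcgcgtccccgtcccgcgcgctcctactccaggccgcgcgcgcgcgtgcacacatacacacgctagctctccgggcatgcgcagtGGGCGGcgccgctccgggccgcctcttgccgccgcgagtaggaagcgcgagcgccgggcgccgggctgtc
Prkcd, chr14:30626209-30626458, minus strand: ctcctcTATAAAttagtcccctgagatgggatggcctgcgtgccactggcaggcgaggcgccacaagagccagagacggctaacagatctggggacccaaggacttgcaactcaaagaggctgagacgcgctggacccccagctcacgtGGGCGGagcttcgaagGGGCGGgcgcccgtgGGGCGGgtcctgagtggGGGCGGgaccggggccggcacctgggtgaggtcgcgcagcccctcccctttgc
Both windows were rich in G and C, at 76.8% in Prkca and 67.6% in Prkcd against a median of 52.4% over all promoters. That is not particular to the risen pair. Pkn2, which was not called, held 77.6% with 5 GC boxes, and the outer Prkcz window 70.8%, while Prkci held 56.4%. Prkca held 2 GC boxes. Prkcd, taken at the outer of its 2 RefSeq starts, held 4 GC boxes and a TATA box near the upstream edge of the window. The window of its inner start was 50.8% G and C and held 0 GC boxes. Neither window held a match to the AP-1, cyclic AMP or NF-κB motif, which occurred in 6.75%, 1.55% and 3.90% of all promoters, and nothing follows from that about the factors.

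The remaining nPKC isoforms gave values on either side of 0 that missed the threshold. Prkch, the eta isoform of stratified and glandular epithelia, stood at 8.05, 6.23 and 10.3 CPM in the controls and at 13.1, 13.3 and 10.4 CPM in the edited samples. The groups did not overlap, although the lowest edited sample was only 0.08 CPM above the highest control. The log2 fold change was 0.54 (95% interval 0.03 to 1.06; limma, BH-adjusted p = 0.0936). It passed the threshold with quantile normalization, TMM scaling, equalised sample medians and edgeR on recovered reads, with log2 fold changes of 0.78, 0.65, 0.75 and 0.73 (BH-adjusted p = 0.0171, 0.0462, 0.0219 and 0.0348).

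Prkce encodes the epsilon isoform, known for roles in cell adhesion and motility. Its levels were 15.4, 19.4 and 15.95 CPM in the controls and 7.95, 13.8 and 14.3 CPM in the edited samples, all of them below the controls. The log2 fold change was -0.49 (95% interval -0.97 to -0.02; limma, BH-adjusted p = 0.0986), or -0.29 with sample medians equalised. It was past the threshold only without sgPrkci/Prkcz replicate 3 (-0.63; limma, BH-adjusted p = 0.0489) among the 19 alternatives. Prkce was below 0 and Prkch above 0 in each of those 19.

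Pkn2, a kinase with a related catalytic domain that is not controlled by diacylglycerol, was the most abundant of the set and showed no detectable difference. Its levels were 279.6, 286.1 and 271.1 CPM in the controls and 264.2, 260.5 and 274.0 CPM in the edited samples. The log2 fold change was -0.07 with a narrow 95% interval of -0.24 to 0.10 (limma, BH-adjusted p = 0.569). With sample medians equalised it was 0.14 (limma, BH-adjusted p = 0.234).

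The nearest relatives outside the set were all low, and 0 of the 5 tested were called by limma, edgeR or DESeq2, with 1 at an unadjusted p under 0.05 in limma. With sample medians equalised 1 of the 5 was called. Pkn3, another PKN kinase gene, had a mean of 10.3 ± 2.94 CPM in the controls and 7.71 ± 2.19 CPM in the edited samples. Prkd2 and Prkd3, kinases of the protein kinase D family that nPKC isoforms phosphorylate, had 12.9 ± 2.40 and 11.9 ± 0.404 CPM in the controls and 12.2 ± 1.29 and 9.64 ± 3.02 CPM in the edited samples. The BH-adjusted p in limma was 0.3205, 0.854 and 0.356 in that order. Prkd1 was not analysed here.

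**Figure D2:**
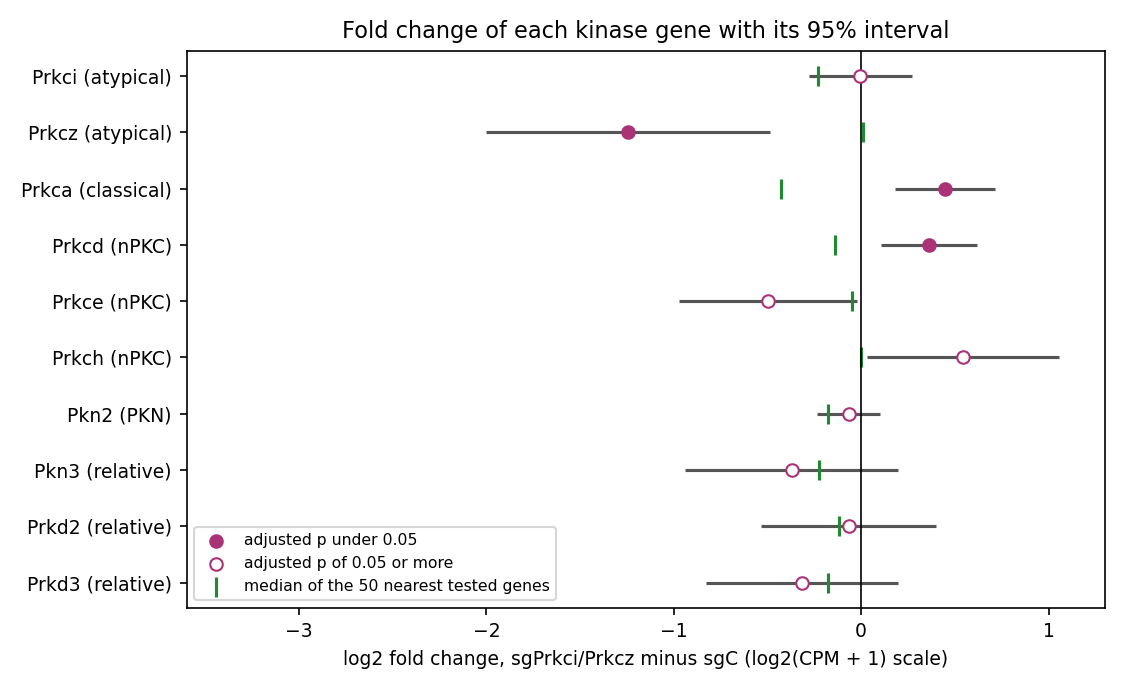
Log2 fold change (sgPrkci/Prkcz minus sgC) of the 7 tested kinase genes and 3 tested relatives, with 95% intervals from limma; filled points passed the threshold and green ticks mark the median of the 50 nearest tested genes on the chromosome. Prkca at 0.45 lies farthest above its tick, at -0.43, among the tested members.

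In all, 2 of the 7 tested members rose and 1 fell, and their median log2 fold change was 0.00 against -0.17 over all tested genes. A called share of 3 in 7 is near the 35.2% of all genes, so the number of calls is not in itself a result about these kinases. For the 5 tested members outside the edited pair the median was 0.36, with 2 risen and 0 fallen. Of all tested genes 11.4% rose and 23.8% fell, and counts among so few genes are a description only. With reads thinned to equal depth Prkca, Prkcd and Prkcz kept their calls, at log2 fold changes of 0.41, 0.40 and -1.29 (limma, BH-adjusted p = 0.0464, 0.0234 and 0.0168), and none of the other 4 tested members was called. By edgeR on recovered reads 3 of the 7 rose and 1 fell, where 16.4% and 16.0% of all tested genes did.

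In summed tags, the classical and nPKC isoforms together stood higher in the edited samples. They came to 152.5, 127.6 and 140.3 CPM in the controls and to 175.5, 172.0 and 184.6 CPM in the edited samples, without overlap, with means of 140.2 ± 12.5 and 177 ± 6.51 CPM. This sum restates the 2 genes already called, as Prkca and Prkcd alone came to 115.1 ± 13.55 and 152.9 ± 7.361 CPM. The edited pair summed to 60.6 ± 7.90 CPM in the controls and 56.4 ± 2.39 CPM in the edited samples, which overlapped. Leaving out Pkn2, the share of all isoform tags held by Prkci and Prkcz was 25.77%, 31.99% and 32.88% in the controls and 25.18%, 24.51% and 22.76% in the edited samples. That separation was small, as the lowest control and the highest edited sample differed by less than 1 percentage point. All measured members together came to 479.7 ± 5.70 and 500.0 ± 12.4 CPM, a difference of 20.4 CPM that became 60.4 CPM with TMM scaling. These sums are descriptions, and no p is given for a score over the chosen genes.

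The order of the levels changed at the middle ranks. In the controls it was Pkn2, Prkcd, Prkci, Prkca, Prkce, Prkch, Prkcz and Prkcb. There the neighbours Prkcd, Prkci and Prkca overlapped in range, at means of 61.2, 54.95 and 53.8 CPM, as did Prkch and Prkcz. In the edited samples it was Pkn2, Prkcd, Prkca, Prkci, Prkch, Prkce, Prkcz and Prkcb. There all Prkca samples were above all Prkci samples, while Prkcd and Prkca, Prkch and Prkce, and Prkcz and Prkcb overlapped. The ratio of Prkca to Prkci within a sample was 1.295, 0.8554 and 0.8556 in the controls and 1.536, 1.245 and 1.289 in the edited samples, so the genotypes overlapped in that ratio through sgC replicate 1.

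Values were also read against neighbouring genes, since chromosome 11, which carries Prkca, had the lowest median of any chromosome. The 50 tested genes nearest to Prkca, over 6.49 Mb, had a median log2 fold change of -0.43, with 3 called as risen and 21 as fallen. Prkca lay above 46 of the 50. Relative to those neighbours its log2 fold change was 0.87 (limma, BH-adjusted p = 5.69e-06), against 0.45 without that reference. Here and below, a p-value for such a relative value takes the neighbours' median as fixed and leaves out the spread among them. It therefore does not test whether a gene differs from its neighbourhood. Prkcd lay above 46 of its 50 neighbours, whose median was -0.14, and its relative log2 fold change was 0.50 (limma, BH-adjusted p = 0.00330). Prkcz, near the end of chromosome 4, lay below 49 of its 50, whose median was 0.01, with a relative value of -1.25 (limma, BH-adjusted p = 0.0122). Relative to their neighbours Prkci and Pkn2 stood at 0.23 and 0.11 and were not called (limma, BH-adjusted p = 0.218 and 0.354).

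**Figure D3:**
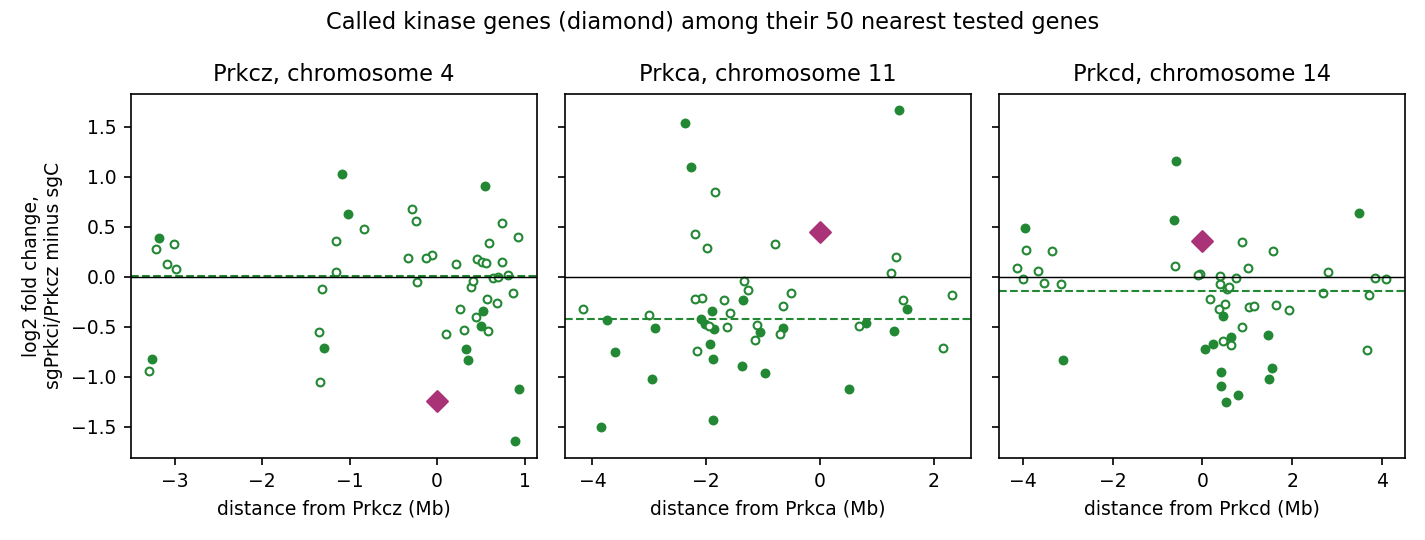
Log2 fold change (sgPrkci/Prkcz minus sgC) of each called kinase gene (diamond) and its 50 nearest tested genes, by distance between gene midpoints in Mb; filled circles passed the threshold and the dashed line is the neighbours' median. Prkca stands out against a median of -0.43 and Prkcd against -0.14, and Prkcz lies at -1.24 beside a median of 0.01.

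Upstream of the classical and nPKC isoforms, phospholipase C makes diacylglycerol from a membrane lipid, and diacylglycerol kinases remove it. Of 8 tested phospholipase C genes 1 rose and 0 fell, with a median log2 fold change of 0.40 against -0.17 over all genes. Of all tested genes 11.4% were called as risen and 23.8% as fallen, which holds beside the counts of the following lists too. With sample medians equalised, and likewise by edgeR on recovered reads, 4 rose and 0 fell. In those settings 19.2% and 16.4% of all tested genes rose. The gene called was Plcb1, an enzyme driven by Gq-coupled receptors, at 35.2, 28.5 and 26.6 CPM in the controls and 46.6, 48.1 and 42.1 CPM in the edited samples (0.59; limma, BH-adjusted p = 0.00304). Relative to its neighbours on chromosome 2, whose median was -0.36, it stood at 0.95.

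Diacylglycerol kinase genes went both ways, with 2 risen and 1 fallen of 6 tested. Dgka, the calcium-dependent alpha enzyme, went from 25.8, 22.3 and 16.7 CPM to 50.6, 38.7 and 53.1 CPM, a log2 change of 1.11 (limma, BH-adjusted p = 1.10e-05). Dgkd went from 64.8 ± 3.20 to 86.4 ± 6.61 CPM (0.41; limma, BH-adjusted p = 0.00677). Dgke, the epsilon enzyme selective for arachidonoyl species, went from 11.9 ± 0.979 to 4.91 ± 0.935 CPM (-1.13; limma, BH-adjusted p = 0.00130). The calls of Dgkd and Dgke were lost relative to the 50 neighbours, at 0.28 and -0.60 (limma, BH-adjusted p = 0.0750 and 0.0754). Summed, the kinase genes gave 141.0 to 161.9 CPM in the controls and 172.5 to 195.6 CPM in the edited samples. Among 6 tested genes of the chimaerin and Munc13 families, which include other diacylglycerol receptors, 0 were called by limma, where 0 had an unadjusted p under 0.05. By edgeR or DESeq2 on recovered reads 0 of them were called, and by limma without trend 1.

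Genes that mature or inactivate protein kinases C included 3 of 11 tested that fell and 0 that rose, with a median log2 fold change of -0.20. That count of falls is near the 23.8% of all tested genes, so it is not in itself a result about these genes. Hsp90aa1, a chaperone on which the kinases depend for folding, went from 661 ± 71.1 to 446 ± 9.83 CPM (-0.56; limma, BH-adjusted p = 2.71e-06). Its constitutive partner Hsp90ab1 went from 3847 ± 268 to 3304 ± 72.7 CPM (-0.22; limma, BH-adjusted p = 0.00604), and Phlpp1, a phosphatase that destabilises several isoforms, from 21.55 ± 3.75 to 14.3 ± 1.77 CPM (-0.56; 0.0314). With sample medians equalised Hsp90aa1 alone kept its call, and Hsp90ab1 stood at -0.01 and Phlpp1 at -0.35 (limma, BH-adjusted p = 0.907 and 0.189). The upstream kinase gene Pdpk1 and the mTORC2 subunit gene Rictor, named for their role and not by the selection rule, had log2 fold changes of 0.07 each.

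Scaffold and substrate genes gave 1 rise and 2 falls among 10 tested, near the 11.4% and 23.8% of all tested genes. Marcks, a classic membrane substrate, was low, at 3.35, 3.61 and 3.90 CPM in the controls and 0.568, 0 and 0.648 CPM in the edited samples. That is 32 reads against 2, a ratio of 0.108 over pooled reads with an exact 95% counting interval of 0.0126 to 0.424. Marcks reached 1 CPM in the controls alone and so entered the test only through the group where it was high; its fall, 1 of the 2 counted, is a description. Rack1, a scaffold of activated kinase and also a ribosomal protein, went from 1599 ± 60.3 to 1230 ± 53.05 CPM (-0.38; limma, BH-adjusted p = 4.145e-05). Rack1 lies on chromosome 11, and relative to its chromosome and to its neighbours the direction turned, to 0.06 and 0.05. Add1, which encodes the membrane skeleton protein adducin, went from 118 ± 4.14 to 142 ± 12.7 CPM (0.26; limma, BH-adjusted p = 0.0450), a call lost in 7 of 19 alternatives, among them leaving out any single control.

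Among 13 tested partners of the atypical isoforms 1 rose and 6 fell, with a median of -0.38, where 11.4% and 23.8% of all tested genes did. With sample medians equalised, and likewise relative to neighbouring genes, 2 rose and 5 fell. With sample medians equalised 19.2% of all tested genes rose and 12.9% fell. The lowest adjusted p belonged to Wwc2, which encodes a relative of the atypical kinase partner KIBRA, with 108, 104 and 113 CPM in the controls and 43.2, 40.9 and 44.1 CPM in the edited samples. Its log2 fold change was -1.32 (limma, BH-adjusted p = 4.52e-10), or -0.97 relative to its neighbours on chromosome 8. Wwc1, the KIBRA gene, went from 223 ± 4.44 to 126 ± 12.4 CPM (-0.82; limma, BH-adjusted p = 8.15e-08), and Sqstm1, whose product p62 binds the atypical isoforms, from 382 ± 12.4 to 225 ± 20.1 CPM (-0.76; 4.26e-08). Both lie on chromosome 11, and relative to their neighbours they stood at -0.36 and -0.33, both still called (limma, BH-adjusted p = 0.00364 and 0.00400).

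**Figure D4:**
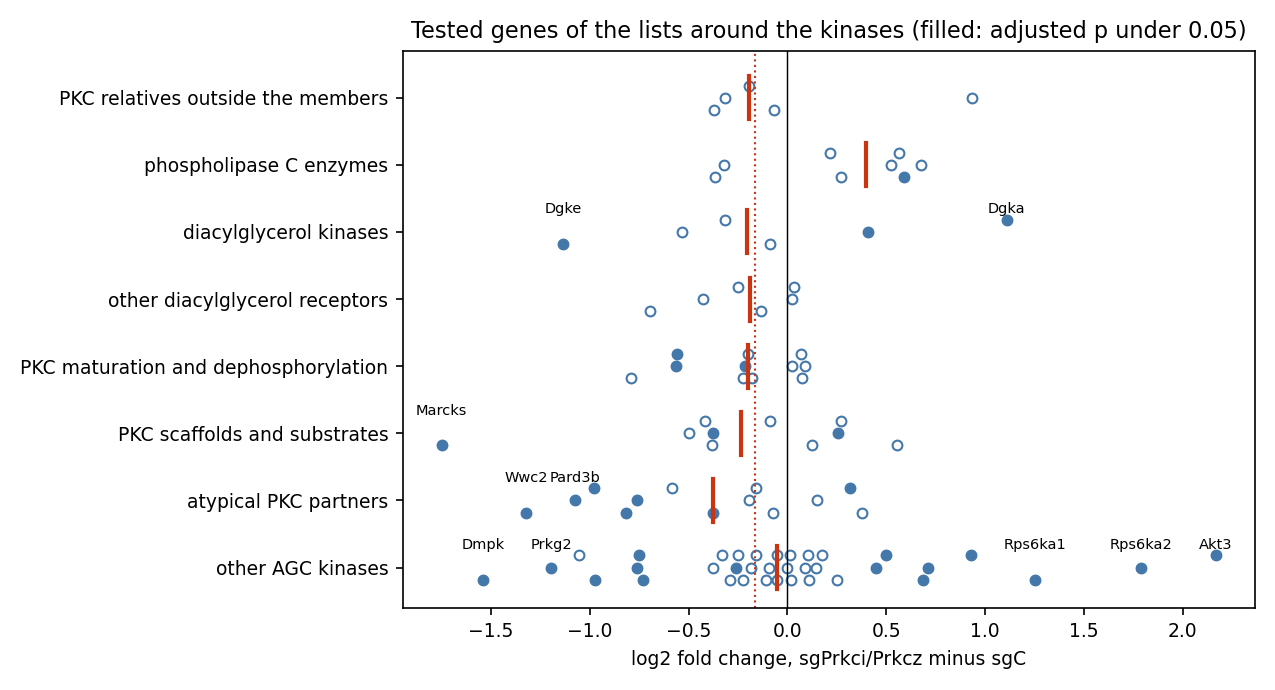
Log2 fold change (sgPrkci/Prkcz minus sgC) of the tested genes of 8 lists around the kinases; filled points passed the threshold, red bars are list medians and the dotted line is the median of all tested genes at -0.17. Phospholipase C genes have the highest median, 0.40, and partners of the atypical isoforms the lowest, -0.38; genes past 1 in size are named where called.

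Other kinases of the AGC group give the scale of change in related genes. Of 36 tested, 8 rose and 7 fell, with a median of -0.05, where 11.4% and 23.8% of all tested genes did. The rise of Rps6ka2, counted among these, is a description only, since that gene reached 1 CPM in the edited samples alone. Prkg2, a cyclic GMP-dependent kinase abundant in intestinal epithelium, went from 413 ± 15.9 to 180 ± 11.5 CPM (-1.19; limma, BH-adjusted p = 4.70e-12). Dmpk, the myotonic dystrophy kinase, went from 44.0 ± 5.76 to 14.6 ± 3.39 CPM (-1.54; limma, BH-adjusted p = 1.34e-07), and Rps6ka1, an effector of ERK, from 22.8 ± 3.29 to 55.35 ± 0.789 CPM (1.25; 1.68e-07). Each of these moved further than Prkca or Prkcd, at 0.45 and 0.36, but they were named for the smallest adjusted p of the 36. Others moved less, such as Akt1 at -0.09, Prkaca at 0.01 and Cdc42bpa at 0.02.

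The genes whose profile over the 6 samples came nearest to those of the risen isoforms were searched among 7720 genes with a mean of at least 10 CPM. Likeness was the root mean square difference between log2(CPM + 1) values centred on each gene's mean. For Prkca these were Inf2, an actin-nucleating formin gene, at 0.0568 and the histone gene Hist2h2be at 0.0572. For Prkcd they were Vps37b, of the endosomal ESCRT-I complex, at 0.0345 and Arhgap12, a GTPase-activating protein gene, at 0.0475. Inf2 stood at 43.9, 33.1 and 41.5 CPM in the controls and 59.1, 53.1 and 50.5 CPM in the edited samples, with sgC replicate 2 lowest as for Prkca. The search selected for likeness over these same samples, so the shared pattern is a description and no support for a link.

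**Figure D5:**
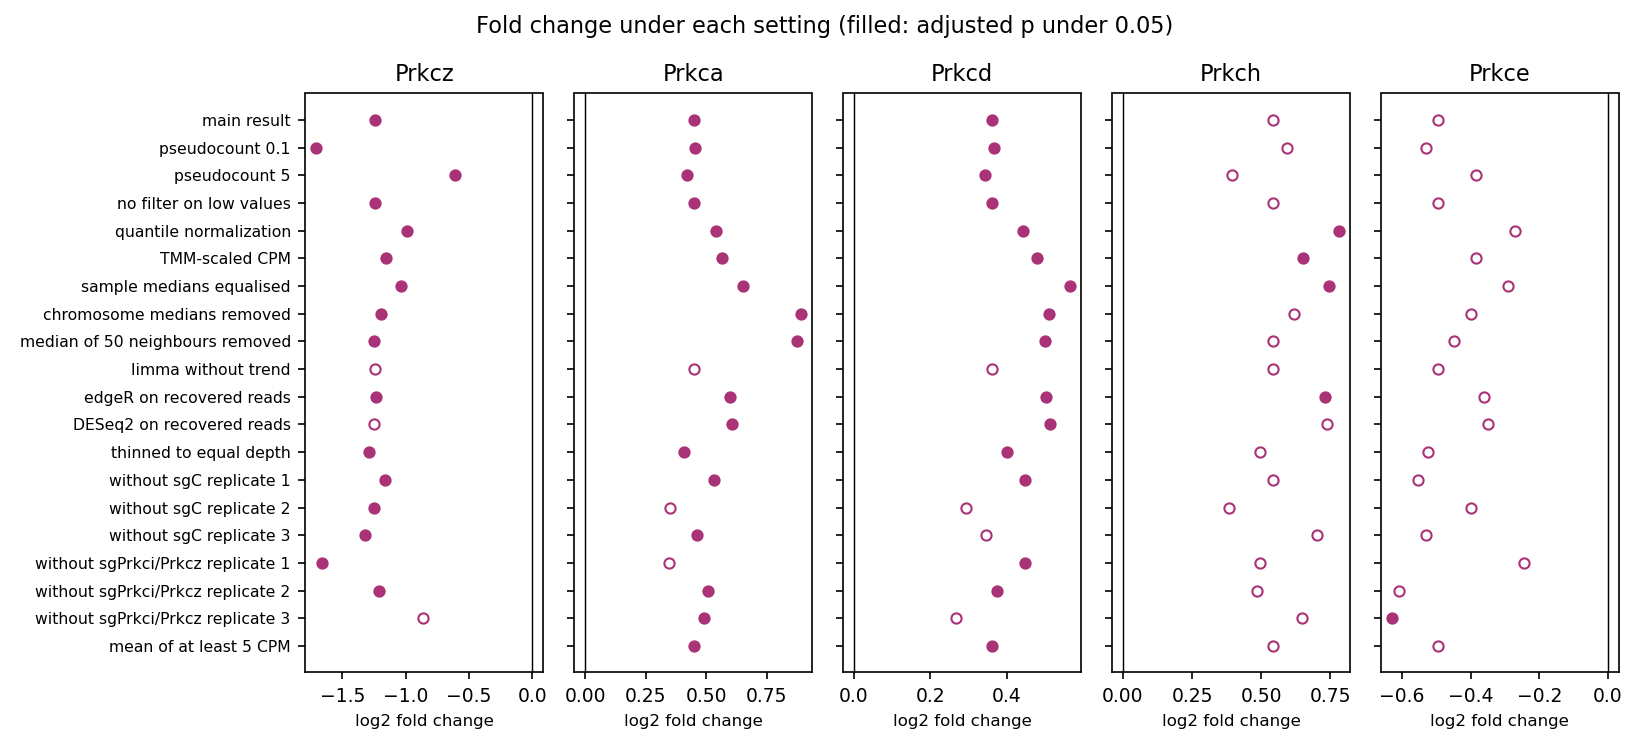
Log2 fold change (sgPrkci/Prkcz minus sgC) of 5 kinase genes under the main setting and each alternative; filled points have an adjusted p under 0.05. All values keep their side of 0, and Prkca ranges from 0.35 to 0.89, Prkcd from 0.27 to 0.57 and Prkcz from -1.71 to -0.61.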

How the data were processed

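RNA of 6 samples had been sequenced, per the labels' protocols, from 200 ng of total RNA with a QuantSeq 3′ FWD kit in single reads of 75 bases. The authors deposited 1 table of CPM for 20756 Ensembl genes, in which every column sums to 1000000. Per the submitters' processing notes, GRCm38 was the genome build. Which aligner and counter ran, and whether strand and molecular identifiers were used, is not given in the sources used here, so antisense reads cannot be told apart. Columns were matched to samples by title, and GENCODE M21 (GRCm38) gave symbols for 20675 genes. Every value was a whole number of steps of 1 read (100% within a relative tolerance of 1e-06), so whole reads were recovered. Samples of a genotype varied beyond counting noise (chi-square per degree of freedom 1.56 to 3.40). The main test was limma 3.58.1 (trend, robust, R 4.3.3) on log2(CPM + 1), with edgeR 4.0.16 and DESeq2 1.42.0 on recovered reads as alternatives; edgeR called 3958 genes. The pipeline was tested on simulated data. Counting intervals and floors (3 reads per group) cover counting error only. Genes named were the members, their relatives, up to 3 called genes per list with the smallest adjusted p, and the 2 nearest profiles of each called member with a mean of at least 10 CPM; Pdpk1, Rictor, markers and sex-linked genes were added for their role, and some genes under this rule are not reported here. Members and lists were chosen with earlier results of these data known. Promoters are from RefSeq (GRCm38.p6), which matched 7 of the 9 members. The alternatives were pseudocounts of 0.1 and 5, other filters, scalings and models, removal of chromosome or neighbour medians, equal depth, and leaving out each sample.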

Additional observations from a re-analysis of the deposited data

How the results depend on the processing

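No paired analysis was possible because the labels give the genotypes no shared replicate numbers. Of 12207 tested genes limma called 4300, limma without trend 2890 and DESeq2 on recovered reads 2726. The number of members called was 3, and it was 0 of 7 with limma without trend, where 4 had an unadjusted p under 0.05, while edgeR called 4 and DESeq2 2. With each sample left out, all-gene calls ranged from 3079 to 3978, calls in the pathway lists from 28 to 32 (32 of 95 with all samples) and the member sum difference from 13.9 to 26.2 CPM, while the number of members called ranged from 1 to 3, and the 1 came without sgC replicate 2. That sum differed by 20.4 CPM between genotypes as deposited and by 60.4 CPM with TMM scaling. The Prkci and Pkn2 values changed sign with scaling and were called in none of the 19 alternatives. The fall of Rack1 turned to 0.0646 with chromosome medians removed and 0.0466 with neighbour medians removed. Prkca kept its call in 16 of 19 alternatives, Prkcd in 15 of 19 and Prkcz in 15 of 18, each with its direction unchanged in all of them. Marcks was tested in 15 of 19 alternatives. Below about 10 CPM the reads set the limit, as Prkcz rests on 50 and 11 reads. The cause of these shifts was not tested.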
